A study of Mus musculus and Rattus norvegicus with 35 samples.

Results

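The circular RNAs (circRNAs) described here are those of mouse genes whose circle joins exons lying 100000 bp or more apart on the genome. They were taken from the deposited list of mouse circRNAs with mapped exon blocks. A circle was kept if it had 3 to 9 separate blocks after touching blocks were merged, a span of at least 100000 bp, a row in the table of circRNA values and a named host gene. The rule used position and structure and no measured level. It gave 518 circles from 254 host genes. These were 3.34% of the 15510 circRNAs with 3 to 9 blocks and a host, and the table of values held 28482 mouse circRNAs in all. The list held 965 circles of this span at any number of blocks, of which 406 had over 9 blocks and 41 had under 3.

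The RNA came from C57BL/6 mice and was extracted with TRIZOL. Brain, heart, liver, lung and testis had 3 rRNA-depleted libraries each, replicate 1 from 14 weeks of age and replicates 2 and 3 from 20 weeks. Hippocampus was sampled at embryonic day 18 (E18) and at postnatal days 1, 10 and 30 (P1, P10, P30), with 2 libraries at each stage. Single libraries at 4 weeks came from hippocampal synaptosomes (a preparation of pinched-off nerve terminals), the homogenate they were made from, and the neuropil and cell body layers of hippocampal area CA1. A further 14-week brain library was selected for poly(A) tails and is used only beside the rRNA-depleted 14-week brain library. Rat libraries from Sprague Dawley animals, 6 in number, came from CA1 neuropil and CA1 somata at 4 weeks and from hippocampal cultures. The cultures, at 28 days in vitro, received water or 40 µM bicuculline for 12 h. The labels do not say which libraries come from separate animals, so p-values here measure the spread between libraries.

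A circRNA forms when the splicing machinery joins the end of a later exon to the start of an earlier one, leaving a closed RNA without a cap or a poly(A) tail. The junction read, in which the exon order is inverted, is the usual evidence for it. Circles are common in brain, where many host genes code for synaptic and neuronal proteins. Neuronal genes also tend to have very long introns, and a circle can span a large stretch of genome while its own sequence remains short, because the introns inside it are removed.

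The circles were long on the genome and short as RNA. Their median span was 141905 bp, with quartiles of 116277 and 189597 bp and a maximum of 596024 bp. The exons inside them summed to a median of 1029 bp, or 0.655% of the span. The 14992 circles of the same block class under 100000 bp had a median span of 12534 bp and a median exonic length of 683 bp, or 6.16% of the span. A single intron took up a median of 51.7% of the span of the long circles and 48.4% in the shorter ones. Within the class, 223 circles spanned 150000 bp or more, 114 spanned 200000 bp or more and 35 spanned 300000 bp or more. Every block number from 3 to 9 was represented, by 61 to 88 circles each. The chromosomes with most of them were 1 (37 circles), 2 (35), 6 (35) and 18 (34).

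Exon chains were compared with GENCODE M21 transcripts by the lengths of their exons and of the gaps between them. An identical chain was found for 222 of the 518 circles (42.9%) and for 10008 of the 14992 shorter circles (66.8%). Exon numbers below are those of the matched transcript. The circle began at exon 2 of the transcript in 94 of the 222 matched long circles (42.3%) and in 22.2% of matched shorter circles. It began at exon 3 in 31 (14.0%), against 11.9%. No matched long circle contained exon 1 or the last exon, and 0.19% and 0.06% of the matched shorter circles did. The start codon lay inside 39 long circles (17.6%), against 8.12% of shorter ones. A further 172 (77.5%) lay wholly within the coding sequence, against 88.2%. These shares are descriptions of the annotation, and no test was made of them.

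Sequences are given 5′ to 3′ from the GENCODE M21 transcripts, whose build is GRCm38, while coordinates are those of the files in mm9. They are shown for circles inside the coding sequence, across the junction, with the end of the last exon in lower case and the start of the first exon of the circle in capitals. Msra (methionine sulfoxide reductase A) and Fars2 (mitochondrial phenylalanyl-tRNA synthetase) are enzyme genes with circles seen mainly in brain. Scaper is the host of the most abundant circle found in testis alone, and Nrxn3 codes for a presynaptic adhesion protein. Of the 3 long circles of Dync1i1, a dynein intermediate chain gene, the 2 shown share their last exon and differ in the first:
Msra exons 7 to 10: gaagaataccaaaagCCAAACACCATGTCA
Fars2 exons 3 to 5: agtgtcaagtttcagTTATTTGCTGGCGTA
Scaper exons 15 to 23: acgaattcctcctaaGTTAATGAGATTGCC
Nrxn3 exons 15 to 18: acagccagcattcagCTGGTGCAACATACA
Dync1i1 exons 6 to 10: gtcttccactgtcagGAGACGACTGCACAA
Dync1i1 exons 5 to 10: gtcttccactgtcagGACCCTGCAGTGGGA
These circles lie at chr14:64829265-64932592 (Msra, minus strand), chr13:36323991-36433966 (Fars2, plus strand), chr9:55533687-55664616 (Scaper, minus strand), chr12:91214787-91443258 (Nrxn3, plus strand) and, for Dync1i1 on the plus strand, chr6:5750775-5873290 and chr6:5734439-5873290.

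The circles of Atxn1 are placed differently. Atxn1 codes for ataxin-1, a nuclear protein whose expanded polyglutamine tract causes a spinocerebellar ataxia. Its circles of 3, 4 and 5 exons run from exon 2 to exons 4, 5 and 6, all before the start codon, so they hold no coding sequence. They lie on the minus strand at chr13:45890878-46051944, chr13:45830484-46051944 and chr13:45793190-46051944, with spans of 161067, 221461 and 258755 bp and exonic lengths of 379, 443 and 568 bp. In all, 9 matched long circles (4.05%) lay before the start codon, against 0.15% of the matched shorter ones, and 5 of the 9 were from Atxn1. The remaining Atxn1 circle, of 6 exons and 390003 bp with 2 reads, reached exon 7 and held the start codon.

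The circles were counted on few reads. Over the 27 rRNA-depleted libraries they had 7042 junction reads, and the median circle had 3 reads over all libraries. There were 178 circles with 2 reads in all (34.4%, against 27.3% of the shorter circles), 108 with 10 or more and 11 with 100 or more. Between 4 and 869 of the 1231 to 43523 circRNA reads of a library came from them. The 5 most abundant circles held 38.5% of the reads, and the 6 circles of Atxn1 held 21.0%. Only 48 of the 518 circles were above 0 in 10 or more libraries, and 43 were seen in 1.

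**Figure D1:**
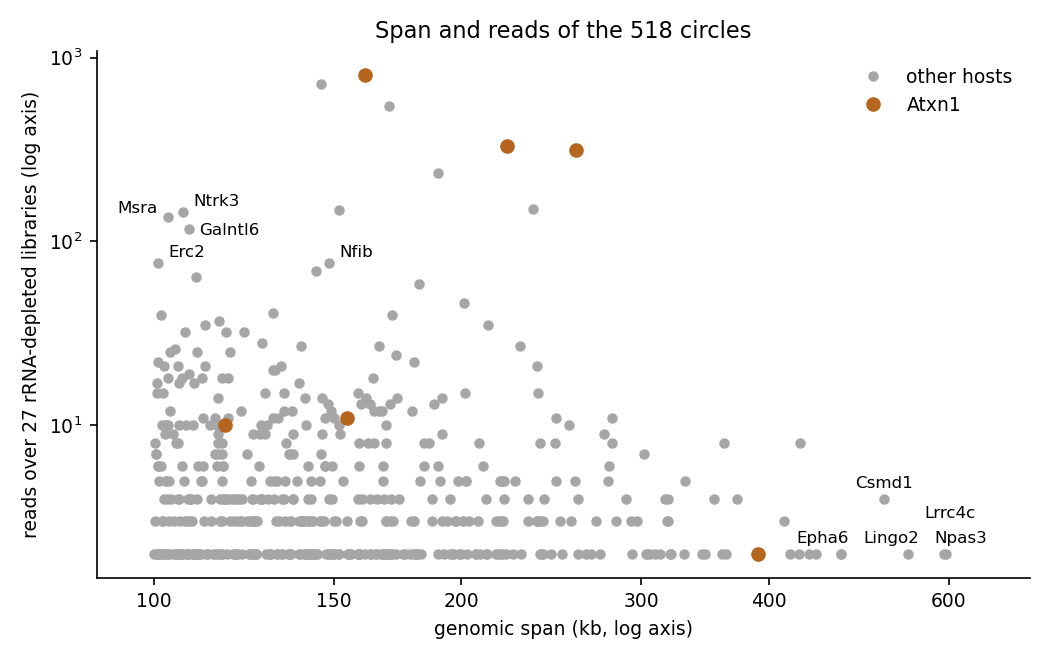
Genomic span in kb (log axis) against junction reads summed over the 27 rRNA-depleted mouse libraries (log axis), with 1 point for each of the 518 circles and those of Atxn1 in colour. The circles of Atxn1 hold 21.0% of the reads, and the 5 longest circles have 2 to 4 reads each.

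Abundance did not follow length. Spearman's rho over the 518 circles was -0.146 between span and reads and -0.0156 between block number and reads, given as descriptions since circles of a host share exons and libraries. The 5 longest circles came from Lrrc4c (596024 bp, a synaptic adhesion gene), Npas3 (592993 bp, a transcription factor gene), Lingo2 (547561 bp), Csmd1 (518908 bp) and Epha6 (470733 bp, an ephrin receptor gene), with 2 to 4 reads each. At the limit of the class, the circles of Lekr1 (100134 bp, 2 reads), Sil1 (100354 bp, 8 reads) and Sgcz (100390 bp, 3 reads) were just inside. Those of Grm5 (99996 bp, 2 reads), Klhl2 (99973 bp, 66 reads) and Erc1 (99947 bp, 5 reads) were just outside.

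Many hosts gave several long circles with shared ends. There were 119 hosts with 2 or more and 135 with 1, and 278 of the 518 circles shared the start of their first exon or the end of their last with another of the class. The start was shared more often (220 circles) than the end (103). Anks1b, which codes for a postsynaptic scaffold protein, had the most long circles, 11, but these carried 55 reads, 1.91% of the circRNA reads of the gene. Epha6 had 9 (30 reads, 11.2%), and Grm7, a metabotropic glutamate receptor gene, had 7 (25 reads, 13.2%). Dmd, the dystrophin gene, also had 7 (18 reads, 11.9%), as had Mdga2 (64 reads, 39.8%). In Atxn1 the 6 long circles held 70.4% of the circRNA reads of the gene. Long circles made up a median of 7.51% of the circRNA reads of a host.

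Values of a circle are given as deposited, in RPM (junction reads scaled to library size), and 1 read was worth 0.448 to 2.14 RPM in an rRNA-depleted library. Summed over the class, the long circles made up 2.05%, 1.54% and 1.46% of the circRNA RPM in the 3 brain libraries (1.68% ± 0.323, SD, n = 3). In testis the share was 1.59%, 1.43% and 1.4% (1.47% ± 0.103, n = 3). It was lower in heart, with 0.497%, 0.425% and 0.418% (0.447% ± 0.0437, n = 3), in lung, with 0.498%, 0.163% and 0.642% (0.434% ± 0.246, n = 3), and in liver, with 0.755%, 0.971% and 0.65% (0.792% ± 0.164, n = 3). Brain and testis overlapped, and every library of either lay above all libraries of heart, liver and lung. The shares in heart, liver and lung rest on 4 to 26 reads of these circles per library. The total of circRNA RPM itself differed between tissues, from 25200 to 30723 in brain, 6349 to 16727 in testis, and 1287 to 4539 in heart, liver and lung.

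In hippocampus the share was 1.39% and 1.59% at E18, 1.36% and 1.45% at P1, 2.17% and 1.98% at P10, and 2.25% and 1.92% at P30. The 4 libraries of P10 and P30 were all above the 4 of E18 and P1. The single libraries had 2.0% in synaptosomes, 1.87% in homogenate, 2.06% in CA1 neuropil and 2.01% in CA1 somata. With 2 or 3 libraries a group and a class chosen with earlier results known, no test was made of these shares. In bulk tissue, fewer cells of a type and less RNA per cell cannot be told apart.

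**Figure D2:**
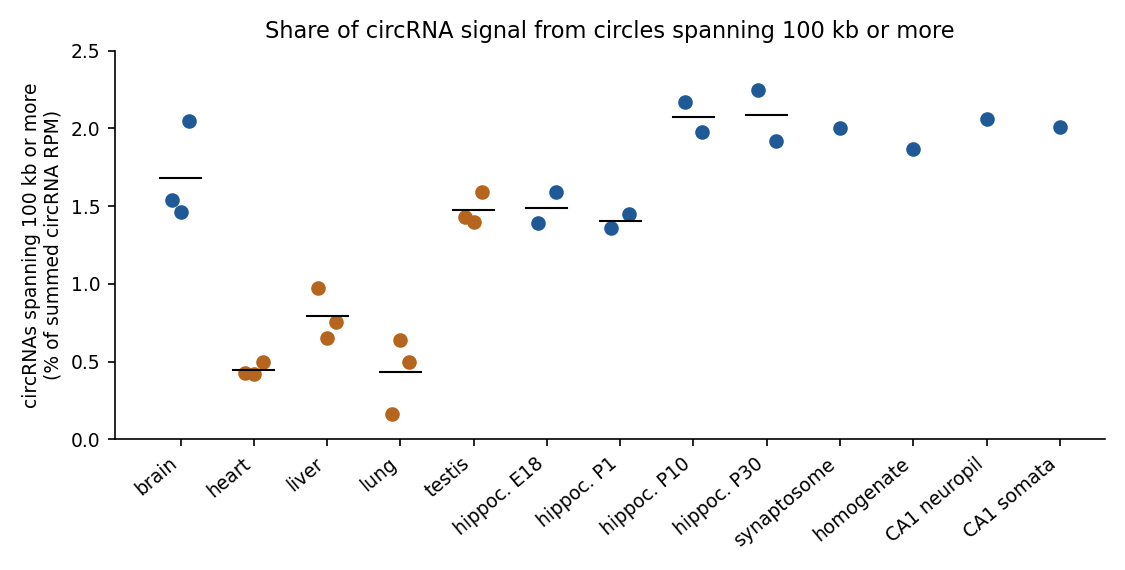
Summed RPM of the 518 circles as a percent of all circRNA RPM (vertical axis), with 1 point per rRNA-depleted mouse library, bars for group means, and colours for brain and hippocampus (blue) against other tissues (brown). The libraries of heart, liver and lung lie below 1%, and those of brain, testis and hippocampus between 1.36% and 2.25%.

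By detection, 375 of the 518 circles (72.4%) had reads in brain or hippocampus and in no other tissue, against 50.5% of the shorter circles. A further 70 (13.5%) were in brain or hippocampus and in testis, and 20 (3.86%, against 12.0%) were in these and in heart, liver or lung as well. There were 17 circles (3.28%, against 4.4%) in testis alone and 2 in heart, liver or lung alone. Brain and hippocampus had 15 libraries with more circRNA reads than the 12 of the other tissues, and the shares of detected circles were not corrected for that depth.

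The Atxn1 circle of 3 exons, the most abundant of the class with 807 reads, had 96.4, 38.9 and 26.8 RPM in brain. Elsewhere it had 3.07, 0 and 1.38 RPM in heart, 2.25, 0.96 and 1.05 in liver, 1.24, 0 and 0 in lung, and 2.15, 0 and 0 in testis. The 14-week brain library stood above the 20-week brain libraries, and all 3 stood above every other tissue library. The Atxn1 circle of 4 exons had 28.2, 31.5 and 23.0 RPM in brain and at most 2.3 RPM in any other tissue library. The circle of 5 exons had 21.2, 33.4 and 23.0 in brain and at most 2.47 elsewhere. In testis the 3 Atxn1 circles had 0 to 2.15 RPM.

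**Figure D3:**
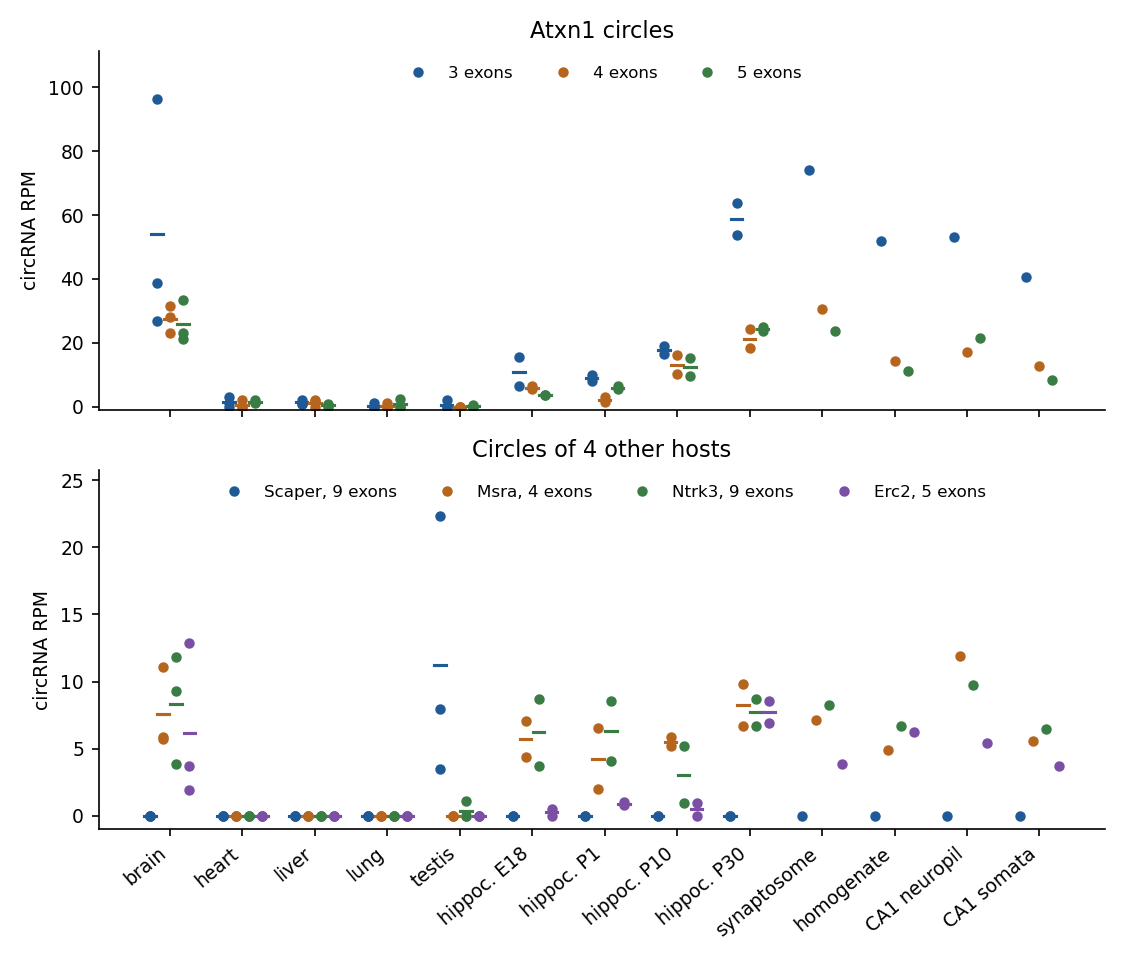
Deposited RPM (vertical axes) of the 3 most abundant Atxn1 circles (upper panel) and of the most abundant long circle of Scaper, Msra, Ntrk3 and Erc2 (lower panel) by tissue, hippocampal stage and fraction, with 1 point per library and bars for group means. No Atxn1 circle is above 2.15 RPM in testis, and the Scaper circle is seen in testis alone.

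Levels in brain were compared with the mean of heart, liver, lung and testis by limma on log2(RPM + 1.18), fitted over 5594 circRNAs above 0 in at least 3 of the 15 libraries. Of the 518 long circles, 65 passed this filter and 453 did not. At an adjusted p of 0.05, 43 of the 65 were higher in brain (66.2%) and 1 was lower. Over all circRNAs tested, 47.7% were higher and 2.82% lower. The median difference was 1.2 on the log2 scale for the long circles and 0.74 for all. In 10 of the 65 the 12 other libraries had no read at all, and all 10 were called. These 10 passed the filter only through the brain libraries, which fixed their direction, so their values are a description. The other 33 calls were on circles with reads in other tissues. Most of these, such as those of Ntrk3 and Fars2, had such reads in 1 library only, too few to pass the filter without brain. Most of the 43 calls thus entered through brain, and the share of 66.2% is a description. How many calls entered so was not counted over all circRNAs. In 23 of the 43 the brain libraries were all above the rest, a count not made over all circRNAs. In the 20-week libraries alone, 20 long circles passed the filter and 17 were higher, beside 1368 of 2366 circRNAs called in either direction. Without brain replicate 1, 2 or 3 the calls numbered 25, 26 and 27, among 45 to 51 long circles tested. Over all circRNAs they numbered 1699 of 4320, 1576 of 4424 and 1727 of 4514.

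Among circles with 10 reads or more, those of Atxn1 had differences well above the median. The Atxn1 circles of 3, 4 and 5 exons were higher in brain by 4.61 ± 0.48 (SE, adjusted p = 2.77e-06, limma), 4.14 ± 0.40 (1.26e-06) and 3.85 ± 0.36 (1.01e-06) on the log2 scale. The Msra circle had 5.88, 11.1 and 5.75 RPM in brain and 0 in all 12 other libraries, so it is one of the 10 that entered through brain alone. Such differences depend on the pseudocount, and they understate changes of circles with few reads.

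The difference in total circRNA bears on the size of these values. When libraries were scaled to equal circRNA totals, the median of all circRNAs fell to 0.06 and that of the 65 long circles to 0.32. Of the 65, 25 were higher and none lower, beside 1010 of all 5594 circRNAs called in either direction. On that scale the Atxn1 circle of 3 exons was higher by 2.10 (adjusted p = 0.00755, limma). The Atxn1 circle of 4 exons (1.76, 0.0536) was no longer past the threshold.

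The circles higher in brain came from 31 hosts. Ntrk3, the gene of the neurotrophin-3 receptor, had a circle of 9 exons with 11.8, 9.27 and 3.83 RPM in brain and 1.13 RPM in 1 testis library, and 0 in the other 11 libraries. Erc2, an active zone scaffold gene, had a circle of 5 exons with 12.9, 3.71 and 1.92 RPM in brain and none elsewhere. Fars2 had 11.8, 5.56 and 1.92 RPM in brain and 0.718 RPM in 1 testis library. In all 3 circles the 14-week library was the highest of brain, and every brain library was above all others. Those of Ntrk3 and Fars2, with reads in 1 other library each, could not have passed the filter without brain. The circles of Lrrc7, a postsynaptic density gene (7 reads), Nrxn3 (6 reads) and Nfib, a transcription factor gene (6 reads), were seen in all 3 brain libraries and in no other tissue, and like that of Erc2 they are among the 10.

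**Figure D4:**
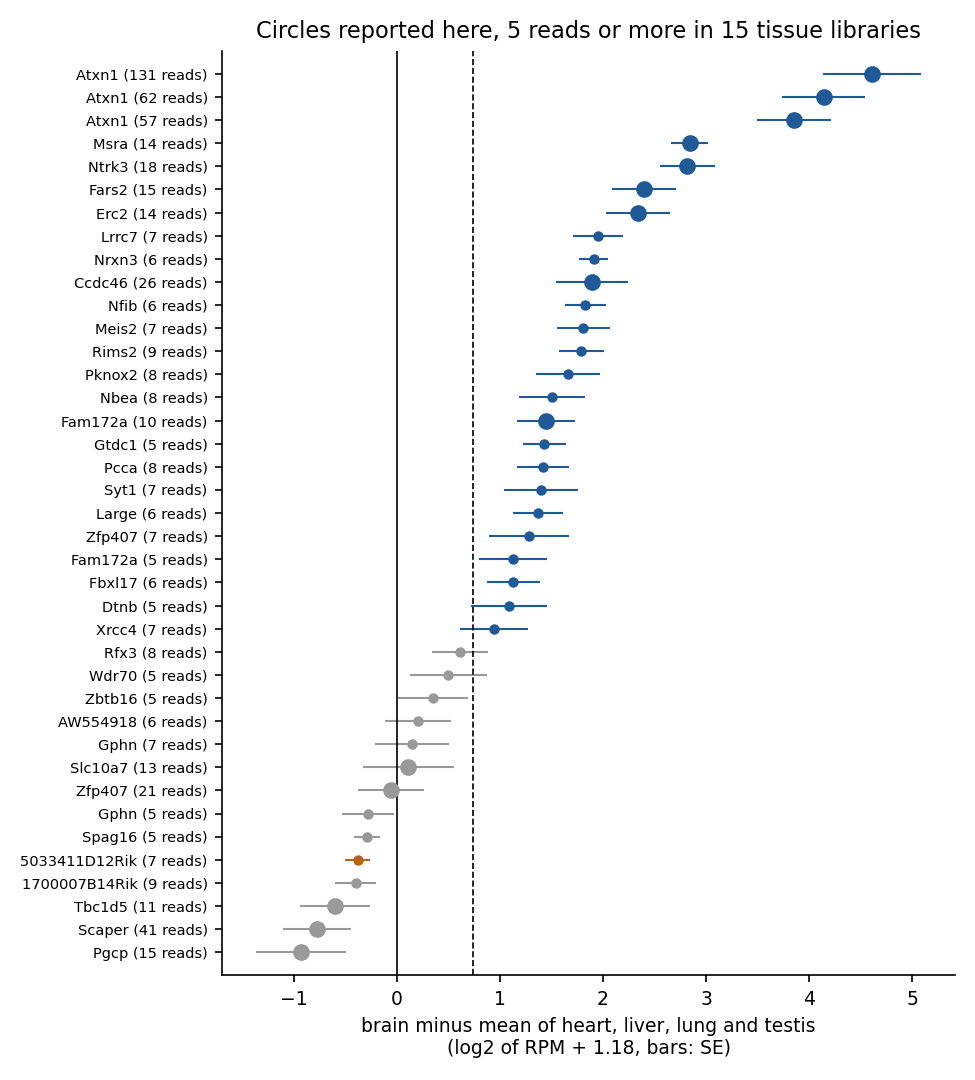
Difference between brain and the mean of heart, liver, lung and testis in log2(RPM + 1.18) (horizontal axis, bars are SE) for the long circles reported here with 5 reads or more in the 15 tissue libraries, blue where higher, brown where lower and grey where neither passed an adjusted p of 0.05, with large points for 10 reads or more. The 3 Atxn1 circles are at the top, and the dashed line marks the median of all circRNAs at 0.74. The circles of Msra, Erc2, Lrrc7, Nrxn3 and Nfib have no read outside brain in these libraries and passed the filter only through it.

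No named long circle was lower in brain at an adjusted p of 0.05; the 1 that passed belongs to a gene model without a name. The 3 with the smallest p were from Scaper (-0.77 ± 0.33, adjusted p = 0.0664, limma), Spag16, a sperm axoneme gene with 5 reads, and Pgcp, a peptidase gene. All 3 had 0 reads in brain and passed the filter only through other tissues, which fixed their direction. Some settings put them past the threshold in limma. Scaper passed with the pseudocount divided by 5 (-1.31, adjusted p = 0.0172) and with at least 20 reads (-0.77, 0.0398), Spag16 with the pseudocount divided by 5 (-0.70, 0.0157), and Pgcp without lung replicate 2 (-1.09, 0.0287).

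In testis against heart, liver and lung, 15 of the 65 long circles were higher (23.1%) and 0 were lower at an adjusted p of 0.05. Over all 5594 circRNAs 14.2% were higher and 0.947% lower, and the medians were 0.33 and 0.18. No long circle was lower at an unadjusted p of 0.05 in limma, and edgeR also called 0 lower. In 42 of the 65 the 9 libraries of heart, liver and lung had no read, as was so for 11 of the 15 called. The 4 with reads in testis alone were all called, and their direction was fixed by the filter. The 20-week libraries alone gave 3 calls among 20 long circles tested, beside 160 among all 2366 circRNAs. Leaving out testis replicate 1 gave 9 among 50, beside 336 among 4510.

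Scaper, whose product binds cyclin A at the endoplasmic reticulum, had a circle of 9 exons with 22.3, 7.93 and 3.46 RPM in testis. It had no read in the other 24 rRNA-depleted libraries and passed the filter through testis alone. Ccdc46, a coiled-coil protein gene, had a circle of 6 exons (chr11:108525810-108670053) with 7.18, 2.27 and 2.3 RPM in testis, 5.88, 7.42 and 3.83 in brain and 2.14 RPM in 1 heart library. It was higher in testis than in heart, liver and lung by 1.82 ± 0.36 (SE, adjusted p = 0.00211, limma), and its brain and testis libraries overlapped. In the 20-week libraries alone the Ccdc46 circle did not pass (1.07, adjusted p = 0.13, limma). A circle of 8 exons from Zfp407, a zinc finger gene, was higher by 2.37 ± 0.33 (0.000114) and had 21 reads. It had no read in heart, liver or lung, and reads in too few brain libraries to pass the filter without testis. The Atxn1 circles differed by -0.31, -0.62 and -0.56 for 3, 4 and 5 exons and did not pass the threshold. For the circles of Scaper and Ccdc46, the 14-week testis library, which had 23286 circRNA reads against 5606 and 6053, held the highest value.

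Markers checked the tissues. Neuron markers summed to 3169 to 3404 TPM (transcript abundance scaled to a fixed total) in brain and to at most 13.0 in the other tissues. Germ cell markers summed to 22478 to 36700 in testis and at most 51.5 elsewhere, and cardiomyocyte, hepatocyte and lung epithelium markers were at 27775 to 98511 in their own tissue. Their part in the differences between tissues was not tested.

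Over development of the hippocampus, the Atxn1 circles increased. The Atxn1 circle of 3 exons had 6.53 and 15.6 RPM at E18, 10.0 and 8.16 at P1, 19.0 and 16.6 at P10, and 63.7 and 53.7 at P30. That of 4 exons had 6.53 and 5.61, 3.01 and 1.63, 16.1 and 10.3, and 24.3 and 18.3 RPM at the same stages, and that of 5 exons 3.81 and 3.74, 5.53 and 6.53, 9.79 and 15.2, and 24.9 and 23.8. All 3 were lowest at E18 or P1 and highest at P30, with both P30 libraries above all 6 earlier ones.

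P30 was compared with E18 by limma on log2(RPM + 0.578), fitted over 14200 circRNAs above 0 in at least 2 of the 8 hippocampal libraries. Of the 518 long circles 248 were tested, 24 were higher at P30 (9.68%) and 1 was lower. Over all circRNAs 6.27% were higher and 1.44% lower, and the medians were 0.5 and 0.27. Of the 24, 16 had reads at P30 alone, so that the filter fixed their direction, among 19 such circles tested. Of the 24, 19 had no read at E18, 13 rested on 2 reads over the 8 libraries and 3 on 3 reads. Among the 41 long circles with 10 reads or more, 7 were higher. The calls depend on each library of the 2 stages: leaving out any one of the 4 E18 or P30 libraries gave 0 calls by limma, with 25 to 41 long circles at an unadjusted p under 0.05. The loss of calls with such a library left out was general to the circRNAs tested and not particular to the long circles. edgeR's quasi-likelihood test with TMM (trimmed mean of M values) scaling called 2 of the 248, beside 107 of all 14200, and 13 of the 248 at an unadjusted p under 0.05.

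The circles past the threshold with 10 reads or more came from Erc2, Zbtb16, Atxn1, Rbfox3 and a gene model without a name. The Erc2 circle had 0.545 and 0 RPM at E18, 1.00 and 0.816 at P1, 0 and 0.978 at P10, and 6.95 and 8.55 at P30, a difference of 3.36 ± 0.59 (adjusted p = 0.0238, limma). Zbtb16 codes for the transcription factor PLZF, and its circle of 3 exons (chr9:48525388-48641204), which holds the start codon, had 0 RPM in both E18 libraries, 0 to 1.00 at P1 and P10, and 3.48 and 3.66 at P30 (2.84 ± 0.43, 0.0154). Rbfox3, the gene of the neuronal splicing factor NeuN, had a circle of 4 exons (chr11:118471473-118672730) with 0.545 and 0 RPM at E18, 0 to 0.576 at P1 and P10, and 2.9 and 2.44 at P30 (2.01 ± 0.42, 0.0421). In these 3 circles both P30 libraries were above the other 6.

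The Atxn1 circles of 5, 3 and 4 exons were higher at P30 by 2.52 ± 0.26 (adjusted p = 0.0154, limma), 2.46 ± 0.39 (0.0154) and 1.71 ± 0.36 (0.0421). With libraries scaled to equal circRNA totals, that of 5 exons kept its call (1.86, 0.0109), while those of 3 exons (1.78, 0.0886), 4 exons (1.04, 0.242), Erc2 (2.85, 0.0755) and Rbfox3 (1.56, 0.13) lost it. By edgeR with TMM, Erc2 (4.11, 0.0508), Zbtb16 (5.39, 0.212), Rbfox3 (2.60, 0.582) and the Atxn1 circle of 4 exons (1.46, 0.1) did not pass. With the pseudocount divided by 5, Erc2 (4.82, 0.113), Rbfox3 (3.33, 0.122) and the Atxn1 circle of 4 exons (1.78, 0.0541) lost the call in limma. Galntl6, a glycosyltransferase-like gene, had a circle of 4 exons with 2.18 and 0 RPM at E18 and 6.95 and 6.11 at P30, which did not pass (2.49 ± 0.73, 0.127) but did with at least 20 reads (2.49, 0.00336). Msra (0.50) and Ntrk3 (0.38) did not pass either, and the E18 and P30 libraries of both overlapped.

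The hippocampus itself changed in makeup over these stages. Neuron markers summed to 371 and 439 TPM at E18 and to 3294 and 3747 at P30, and oligodendrocyte markers went from 23.7 to 24.6 up to 6734 to 7441. Progenitor markers went from 593 to 764 down to 22.1 to 26.6. The part of these changes in the circle values was not tested.

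The host genes were measured separately, as TPM in the gene table, and all 254 were in it. Of the 254, 209 were higher in brain (82.3%) and 13 lower (5.12%) by limma on log2(TPM + 1), where 45.4% of 18966 genes were higher and 28% lower. The median difference was 2.24 for the hosts and 0.34 for all genes. Brain had the highest mean of the 5 tissues for 162 hosts (63.8%), against 30.3% of 19510 genes. A host had to give circRNA reads, and brain and hippocampus gave more of these than the other tissues. Hosts of shorter circles were not compared, so whether these shares are particular to long circles was not tested. Of the 43 circles higher in brain, the host was higher too for 38 and did not pass the test for 5. At P30 against E18, 134 of 253 hosts were higher (53%) and 34 lower (13.4%), where 29.5% of 15444 genes were higher and 26.8% lower. Of the 24 circles higher at P30, the host was higher for 15, lower for 3 and did not pass for 6.

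Levels of circle and host can be set side by side. Atxn1 was 42.5 ± 12.6 TPM in brain, 25.2 in lung, 14.7 in heart, 9.14 in liver and 1.85 in testis. It went from 9.1 ± 1.97 TPM at E18 to 40.9 ± 4.13 at P30, a difference of 2.06 ± 0.20 (2.03e-05) beside 2.46 for its 3-exon circle. Zbtb16 (1.91 ± 0.18, 1.88e-05), Rbfox3 (2.13) and Erc2 (1.07 ± 0.15, 0.000264) were also higher at P30 as genes. Msra was lower at P30 as a gene, by -0.87 from 120 to 65.1 TPM, while its circle had 7.08 and 4.37 RPM at E18 and 9.85 and 6.72 at P30. Scaper had 78.4 ± 10.2 TPM in testis and 52.0 ± 12.4 in brain, where its 9-exon circle had no read.

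**Figure D5:**
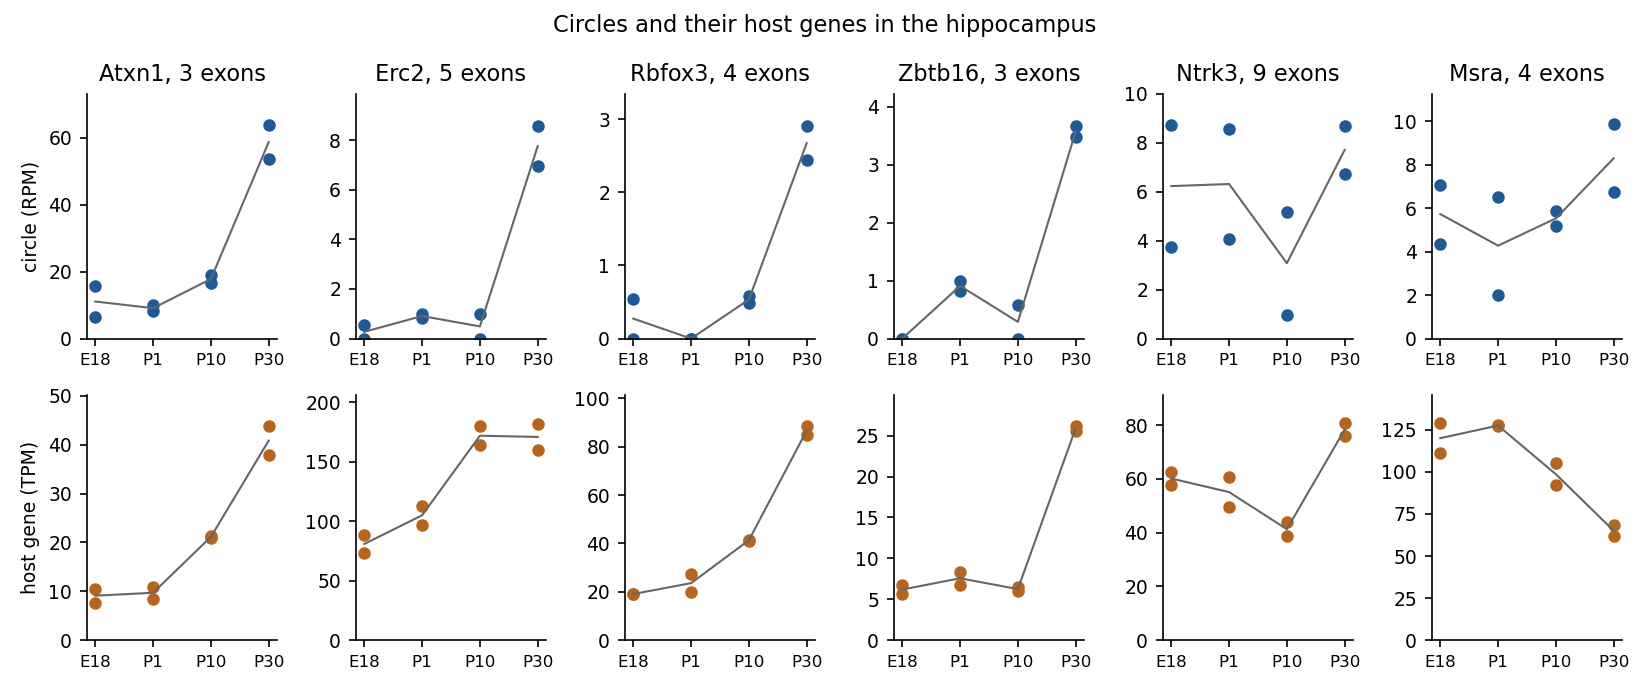
Deposited RPM of 6 circles (upper panels) and deposited TPM of their host genes (lower panels) in hippocampus at E18, P1, P10 and P30, with 1 point per library (2 a stage), a line through the means and a separate vertical axis from 0 in each panel. Circle and host both end highest at P30 for Atxn1 and Zbtb16, and for Msra the host falls from 120 to 65.1 TPM.

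The ratio of circle to host was compared between brain and the other tissues as log2(RPM + 1.18) minus log2(TPM + 1). Of the 65 long circles, 12 had a higher ratio in brain and 27 (41.5%) a lower one, where 19.7% and 23.7% of the 5428 circRNAs tested did. The medians were -0.4 and -0.04. This split moved with the scale: the pseudocount divided by 5 gave 17 higher and 12 lower, 5 times the pseudocount gave 8 and 38, and equal circRNA totals gave 3 and 37. In 13 of the 27 lower ratios the circle had at most 1 read in the other tissues. The ratio was higher in brain for Fars2 (2.63 ± 0.33) and the Atxn1 circle of 3 exons (2.55 ± 0.39, adjusted p = 4.96e-05, limma). On equal totals the difference of the Atxn1 circle was 0.04 (0.925). The ratio was lower in brain for Ntrk3 (-1.97) and Erc2 (-2.73). Outside brain the Ntrk3 circle had reads in 1 testis library and the Erc2 circle had none, so the pseudocount largely sets the ratio there. With the pseudocount divided by 5 the differences were 0.04 (adjusted p = 0.962, limma) for Ntrk3 and -0.72 (0.266) for Erc2, and neither passed.

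Gene lists by function were compared with the hosts. Of the 254 hosts, 96 were in a list, with 229 of the 518 circles. Cell adhesion and axon guidance genes had the most long circles, 74 from 34 of 70 genes, among them Odz2, a teneurin gene (15 reads), Ctnna2, a neuronal catenin gene (13 reads), and Cntn5, a contactin gene (13 reads). None of these circles passed the filter in the tissue comparison, and 1 of 37 tested was higher at P30, where 6.27% of all circRNAs were. Their genes were higher in brain for 32 of 34 hosts, beside 82.3% of all 254 hosts and 45.4% of all genes tested. At P30 they were higher for 17 and lower for 4. Of all hosts tested 53% were higher at P30 and 13.4% lower, and of all genes 29.5% and 26.8%. Postsynaptic genes had 51 circles from 11 of 55 genes. Of these, 4 were tested in the tissues, and the 1 called higher in brain (Lrrc7) had passed the filter through brain alone. At P30 0 of 27 passed by limma. As genes all 11 hosts were higher in brain, again beside 82.3% of all hosts and 45.4% of all genes.

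Presynaptic genes had 27 circles from 7 of 41 genes. All 6 tested were called higher in brain, beside 47.7% of all circRNAs, and 3 of them, Erc2 included, had passed the filter through brain alone. The other 3, among them that of Rims2, an active zone gene, had reads elsewhere, but in too few libraries to pass without brain. At P30, 3 of 13 presynaptic circles were higher, beside the 6.27% of all circRNAs. Of the 3, the Erc2 circle described above also had reads at earlier stages. Among all 24 long circles called higher at P30, 16 had reads at P30 alone, which fixed their direction. Whether the other presynaptic calls were of this kind was not counted, so the share is a description. Kinase and signalling genes had 24 circles from 13 of 62 genes. Their test results are not reported here. Chromatin and transcription genes had 18 circles from 11 of 43 genes, and the 3 tested in the tissues (2 of Nfib and 1 of Tcf4) had passed the filter through brain alone. As genes, 5 of these 11 hosts were lower at P30 and 1 was higher, where 26.8% of all genes tested were lower and 29.5% higher.

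Ion channel genes had 13 circles from 9 of 40 genes, led by those of the calcium channel genes Cacna1c (11 reads), Cacna2d1 (9 reads) and Cacna1e (8 reads). The 1 circle tested did not pass in brain, and 2 of 7 were higher at P30, again beside 6.27%. Of all 24 long circles called higher at P30, 16 had reads at P30 alone, so the filter fixed their direction. Whether the 2 ion channel circles were among these was not counted, so their share is a description and no excess can be read from it. RNA binding genes had 8 circles from 5 of 34 genes, of which those of Rbfox3 (46 and 14 reads) and Celf2 (17 reads) had most. Cytoskeleton genes had 14 from 6 of 45, with the Dync1i1 circles of 5 and 6 exons at 32 and 17 reads. None of the 28 germ cell genes hosted a long circle, and 18 of the 28 had any circRNA.

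The fractions have 1 library each, so ratios carry exact 95% intervals of the read split that cover counting error only, and there is no replicate check. Junction reads here are PCR products without molecular identifiers. In synaptosomes against homogenate the long circles summed to 477 and 307 RPM (869 and 684 reads), a ratio of 1.56 (1.41 to 1.72). All circRNAs had a ratio of 1.46 (1.44 to 1.48). Of the 20 long circles with 10 reads or more in the pair, 17 had a ratio above 1, with a median of 1.45. The median of all 1576 such circRNAs was also 1.45, and 76.1% of them were above 1. The highest were Nfib, with 8.24 and 1.79 RPM (4.59, 1.46 to 19.0), and Fars2, with 7.69 and 2.69 RPM (2.86, 1.03 to 9.08). The Atxn1 circles of 4, 5 and 3 exons had ratios of 2.14, 2.11 and 1.43. Erc2 was lowest, with 3.84 and 6.27 RPM (0.613, 0.209 to 1.62), an interval that holds 1. Astrocyte markers summed to 2577 TPM in synaptosomes and 733 in homogenate, and neuron markers to 1996 and 4258, and their part in these ratios was not tested.

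In CA1 neuropil against somata the long circles summed to 545 and 259 RPM (503 and 280 reads), a ratio of 2.11 (1.82 to 2.45), beside 2.05 (2.0 to 2.09) for all circRNAs. All 12 long circles with 10 reads or more were above 1, as were 93.1% of 685 circRNAs. Galntl6 had 19.5 and 6.47 RPM (3.01, 1.2 to 8.54). The Atxn1 circle of 3 exons had 53.1 and 40.7 RPM (1.31, 0.851 to 2.01). Astrocyte markers were at 1633 TPM in neuropil and 629 in somata, and their part was not tested.

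In the poly(A)-selected brain library the long circles had 2 reads against 440 in the rRNA-depleted 14-week brain library. The ratio of RPM was 0.00238 (0.000288 to 0.00866), beside 0.00311 for all circRNAs (127 and 21432 reads). The Atxn1 circle of 3 exons had 1 of the 2 reads, at 0.616 RPM against 96.4.

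The same rule applied to the rat list gave 265 circles from 155 hosts, out of 8762 of the class with a host. By symbol, 94 hosts were shared, 37.0% of the mouse hosts and 60.6% of the rat hosts. For 31 rat circles of 24 hosts, the exon lengths were the same, in the same order, as in a long mouse circle of that host. The Msra circle was one of them. Its rat counterpart had the same 401 bp in 4 exons, spanned 101228 bp in rat and 103328 bp in mouse, and had 15.7 RPM in rat CA1 neuropil, 4.85 in CA1 somata, and 1.8 and 9.81 in control and 3.05 and 2.35 in bicuculline-treated cultures. Control and treated cultures overlapped. The Dync1i1 circles of 5 and 6 exons were also found in rat with the same exonic lengths of 595 and 655 bp. Among the shared hosts, circles of Galntl6 (72 reads) and Nfib (52 reads) had the most reads in rat, with other exon chains than in mouse.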

How the data were processed

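The circRNA values deposited by the authors are named TPM but are RPM by their values: junction reads divided by 1 factor per library, whose denominator no source used here describes. Every mouse value and 99.8% of rat values were whole multiples of the value of 1 read within 0.1 of a read, so reads were recovered by division. For genes, the deposited values are TPM. The lists of circRNA positions and blocks are used as deposited, in mm9 and rn5. Both builds stand in the submitters' processing notes, together with TopHat2 2.0.6, Cufflinks 2.2.1 and CASAVA 1.8.2. Which program called circRNAs is not given there. A long-read library of P30 hippocampus, whose labels point to the same columns as the short-read P30 replicate 2, was not analysed here.

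Tests were made with limma 3.58.1 in R 4.3.3 (eBayes with a trend, two-sided, Benjamini-Hochberg adjustment over all features tested, threshold 0.05), on all circRNAs or genes, with 1 mean per tissue or stage. The pseudocount was the median value of 1 read over the fitted libraries, 1.18 RPM for tissues and 0.578 RPM for stages, and 1 TPM for genes. Tested circRNAs were above 0 in 3 or more tissue libraries or 2 or more stage libraries, and tested genes reached 1 TPM in as many. The poly(A) library stayed out of the fits. The design named edgeR should the table hold whole counts; it holds RPM, so edgeR 4.0.16 on recovered reads became an alternative. The fits were tested on simulated data. Ratios of single libraries carry exact Clopper-Pearson intervals at 95%, which cover counting error only. Junction sequences came from GENCODE M21 transcripts whose exon and gap lengths equal those of the circle, found for 222 of 518. Alternatives covered the pseudocount, the filter, equal circRNA totals, the test, the replicate block, the 20-week libraries alone (chosen after seeing the data) and each library left out. Python 3.11.15 with pandas 2.3.3 and scipy 1.17.1 did the rest.

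Named circles follow a rule: the 12 with most reads, the 6 largest differences per direction among those past the threshold with groups apart and 10 reads or more (or the 3 smallest p where none passes), the 5 longest, the 3 on each side of the span limit, the 8 hosts with most circles, up to 3 per gene list, and the 5 highest and 5 lowest ratios of a pair. Nrxn3 and Rims2 fall outside this rule and were chosen after their values were seen. Hosts known only by a clone or model number are not named, and the circles of some hosts are counted but not reported singly here. The circles and the gene lists were chosen with earlier results of these data known.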

Additional observations from a re-analysis of the deposited data

How the results depend on the processing

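Counts of long circles past the threshold depended on how many libraries and reads the filter asked for. In brain against other tissues, 44 calls became 75 with no filter, 10 with at least 20 reads, 25 on equal circRNA totals, 17 in the 20-week libraries and 30 with edgeR and TMM, and ranged from 25 to 43 with 1 library left out. In testis against heart, liver and lung, 15 calls became 7 with at least 20 reads and 3 in the 20-week libraries, and ranged from 9 to 19. For P30 against E18, 25 calls became 0 with no filter (limma, with 52 at an unadjusted p under 0.05, and edgeR with TMM called 2 with the filter), 7 with at least 20 reads, 2 with edgeR and TMM and 4 with edgeR on the deposited scale, and ranged from 0 to 23 (a lone library left at a stage is assumed to vary like the others). The ratio to the host gave 39 calls, 222 with no filter, 6 with at least 20 reads and 12 in the 20-week libraries, and ranged from 26 to 39. Host genes gave 222 calls in brain (193 to 222) and 168 at P30 (137 to 183). The filters and the smaller sets of libraries change how many circles are tested, and the cause of the other moves was not tested.

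The ratio to the host changed sign for the Atxn1 circles of 4 and 5 exons on equal totals (-0.30 and -0.57, from 2.08 and 1.79), and for the Ntrk3 circle with the pseudocount divided by 5 (0.04, from -1.97). Of the values of single named circles under an alternative, 622 kept direction and side of the threshold, 59 lost the call and 5 gained it.

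The share of circRNA RPM for circles of 150000 bp or more was 0.94% in brain, 0.232% in heart, 0.408% in liver, 0.0923% in lung, 0.576% in testis, and 0.722%, 0.687%, 1.13% and 1.15% at E18, P1, P10 and P30. For all circles of 100000 bp or more, as a share of circRNAs with 3 to 9 blocks and a host, it was 2.74%, 0.839%, 1.31%, 0.715%, 2.37%, 2.51%, 2.42%, 3.5% and 3.4% in the same order. Of all circRNA RPM, and without the Atxn1 circle of 3 exons, it was 1.33% at P1, 1.89% at P10 and 1.76% at P30. With 1 library left out the share of all circRNA RPM ranged from 1.5% to 1.8% in brain, 0.422% to 0.461% in heart, 0.702% to 0.863% in liver, 0.331% to 0.57% in lung, 1.42% to 1.51% in testis, 1.39% to 1.59% at E18, 1.36% to 1.45% at P1, 1.98% to 2.17% at P10 and 1.92% to 2.25% at P30.

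Whether replicate numbers pair the libraries is not settled. Deviations of same-numbered libraries correlated by 0.00414 to 0.0127 in hippocampus. In the tissues, where libraries were matched by age and title number, they correlated by -0.00773 to 0.111. Many circRNAs have few reads, and counting error lowers such correlations, so low values do not exclude pairing. With the replicate block the calls were 43, 15, 19 and 40 for the circle comparisons and the ratio, and 224 and 182 for the host genes. At P30 the block took Erc2 (adjusted p = 0.0541, limma) and Rbfox3 (0.0732) over the threshold.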
